A study of Mus musculus with 18 samples.

Results

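The genes described here are 32 markers of endothelial cells, the cells that line blood vessels. They were chosen by symbol in the deposited count tables, and all 32 were found once among the 53801 mouse genes listed. Each of the 18 libraries holds RNA of intact pancreatic islets, taken at 5 weeks of age from mice fed normal chow. MafA, a beta cell transcription factor, was either wildtype (WT) or heterozygous for its S64F variant (S64F/+). Males gave 4 libraries of each genotype and females gave 5 of each. The labels do not say whether replicates came from separate animals, so the p-values measure the spread between libraries, part of which may be technical.

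Islet capillaries are dense and fenestrated, and beta cells supply the VEGF-A that maintains them. Endothelial cells read VEGF through the receptors Kdr and Flt1, angiopoietins through Tek, and neighbouring cells through Notch receptors, while ETS, SOX F and SCL factors keep their gene programme on. Their shared surface proteins, such as Pecam1 and VE-cadherin (Cdh5), are the usual markers of the lineage.

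Totals per library ran from 19317971 to 108659014 counts. Levels are in CPM, counts scaled to a common library total, here after TMM scaling, and values for several libraries follow the order of the replicate numbers. The sign ± gives the SD after a mean and the SE after a log2 difference. A gene was called where the adjusted p of edgeR's quasi-likelihood test was under 0.05, over 18364 genes tested in each comparison, among them all 32 markers. Mafa itself, the gene that carries the variant, had means of 905 ± 80.8 CPM in male WT and 197 ± 52.2 CPM in male S64F/+ (SD, n = 4 each). In females its means were 639 ± 117 and 159.6 ± 49.7 CPM (SD, n = 5 each). Counts per gene do not separate the alleles, so the genotype labels were not checked by sequence. The islet label was checked by the insulin gene Ins2, at 138293 to 191816 CPM in male WT.

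In male islets most endothelial markers were higher in S64F/+ than in WT, and in female islets most were not called. In males 21 of the 32 rose, against 15.3% of all tested genes called higher. Lyve1 and Esm1 fell, 2 of 32 against 12.3% of all tested genes called lower, and 9 were not called. The median log2 difference over the 32 was 0.82, beside -0.03 over all tested genes. The plot of log2 differences by gene shows the male values mostly right of 0 and the female values around it. In bulk tissue a larger share of endothelial cells and more RNA per endothelial cell cannot be told apart.

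**Figure D1:**
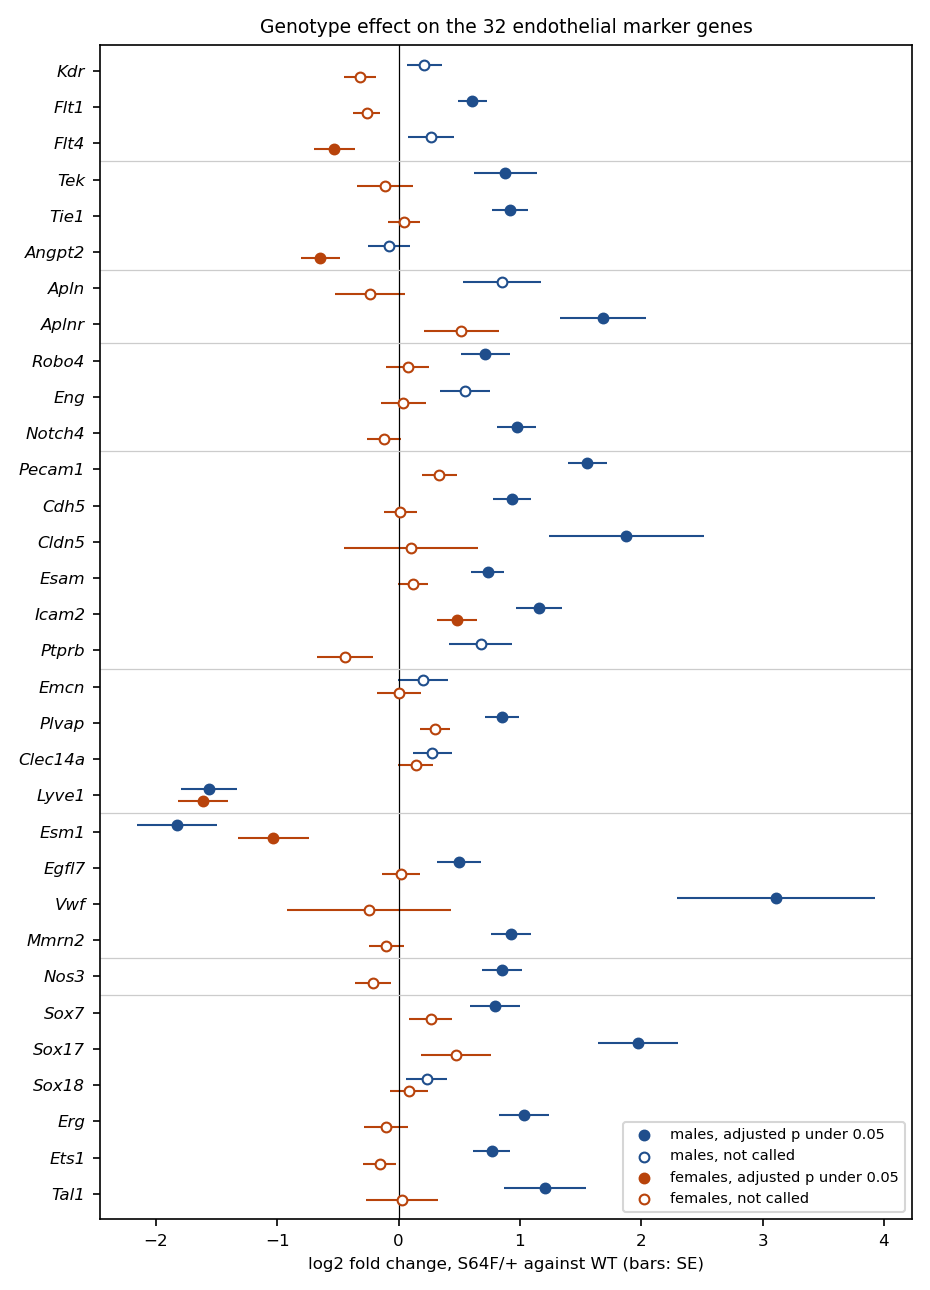
Log2 difference of S64F/+ against WT for each of the 32 markers (vertical axis, ordered by role) in males and in females, with the SE as bars; filled points are called at an adjusted p under 0.05 and open points are not. Of the male points 29 lie above 0 and 3 below, while of the female points 17 lie above 0 and 15 below.

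The promoters of 4 markers are shown because these genes had different calls: Flt1 and Notch4 rose in males and had a called difference between the sexes, Esm1 fell in both sexes and Kdr was called in neither. Each line is the 250 bases before the RefSeq start site, on GRCm38.p6, 5′ to 3′ on the gene's strand. Capitals mark matches on either strand to CNGGAA, a core that ETS factors such as Erg and Ets1 bind. The positions are chr5:147726012-147726261 (minus strand), chr17:34564045-34564294 (plus strand), chr13:113209409-113209658 (plus strand) and chr5:75978456-75978705 (minus strand).
Flt1: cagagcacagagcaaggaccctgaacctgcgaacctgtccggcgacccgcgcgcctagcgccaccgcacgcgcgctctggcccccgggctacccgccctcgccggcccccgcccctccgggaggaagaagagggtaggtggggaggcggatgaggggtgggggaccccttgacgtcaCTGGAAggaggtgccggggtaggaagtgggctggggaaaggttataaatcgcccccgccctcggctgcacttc
Notch4: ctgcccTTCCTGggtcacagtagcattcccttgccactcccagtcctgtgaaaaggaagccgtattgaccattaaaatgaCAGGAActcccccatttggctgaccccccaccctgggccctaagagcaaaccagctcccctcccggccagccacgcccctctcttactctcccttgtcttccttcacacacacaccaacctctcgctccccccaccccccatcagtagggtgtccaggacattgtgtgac
Esm1: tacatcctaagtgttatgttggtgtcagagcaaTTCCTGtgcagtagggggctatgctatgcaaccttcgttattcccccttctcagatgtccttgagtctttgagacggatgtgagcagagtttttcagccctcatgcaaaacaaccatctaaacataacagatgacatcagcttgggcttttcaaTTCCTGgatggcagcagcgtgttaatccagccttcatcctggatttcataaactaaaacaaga
Kdr: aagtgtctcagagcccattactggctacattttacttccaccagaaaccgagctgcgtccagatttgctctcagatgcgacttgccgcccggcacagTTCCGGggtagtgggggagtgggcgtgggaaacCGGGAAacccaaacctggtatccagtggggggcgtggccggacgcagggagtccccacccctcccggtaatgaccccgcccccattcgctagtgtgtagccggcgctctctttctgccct
Flt1 holds 1 match, and Notch4, Esm1 and Kdr hold 2 each. The RefSeq table gave a single start site for 13 of the 32 markers, and 11 of those 13 hold the core, which is present in 54.2% of all 32851 promoters searched. The SOX core AACAAT was found in 2 of the 13 and in 9.42% of all promoters. The GATA core AGATAA was found in 0 of the 13 and in 9.99% of all. A match is a run of letters and not a measured binding site.

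Among the VEGF receptors, Flt1, a high-affinity receptor that can act as a decoy for VEGF-A, was 1.53-fold higher in male S64F/+. It ranged from 75.7 to 115 CPM in male WT and from 142 to 165 CPM in male S64F/+, so the groups did not overlap. The log2 difference was 0.61 ± 0.12 (adjusted p = 0.00108, edgeR). In females Flt1 ranged from 93.7 to 134 CPM in WT and from 88.5 to 103 CPM in S64F/+, with a log2 difference of -0.26 ± 0.11 (adjusted p = 0.0948, edgeR). Kdr, the main signalling receptor for VEGF-A, was not called in either sex, at 129.7 ± 19.7 CPM in male WT and 150.4 ± 24.2 CPM in male S64F/+ (SD, n = 4 each). Its log2 difference was 0.21 ± 0.15 (adjusted p = 0.311, edgeR) in males and -0.32 ± 0.13 (adjusted p = 0.0965, edgeR) in females, on opposite sides of 0.

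Flt4, the receptor for VEGF-C, followed another pattern and fell in females. It stood at 15.7, 18.8, 18.5, 9.63 and 17.8 CPM in female WT libraries and at 10.6, 12.1, 11.9, 10.8 and 10.4 CPM in female S64F/+ libraries. In WT, 4 of the 5 libraries were above every S64F/+ library, and WT 4 was the lowest of all 10. The female log2 difference was -0.53 ± 0.17 (adjusted p = 0.0315, edgeR), and in males it was 0.26 ± 0.19 (adjusted p = 0.327, edgeR). The female call did not hold in 6 of 18 fits made without a library, up to an adjusted p of 0.0799 in edgeR without female WT 2, nor with library-size scaling (adjusted p = 0.062, edgeR).

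In the angiopoietin system the receptors rose in males while the ligand Angpt2 was not called. Tie1, the orphan partner of the angiopoietin receptor, ranged from 22.4 to 33.7 CPM in male WT and from 48.6 to 64.1 CPM in male S64F/+, with a log2 difference of 0.92 ± 0.15 (adjusted p = 0.000177, edgeR). Tek, which encodes the angiopoietin receptor TIE2, ranged from 10.2 to 15.7 CPM in male WT and from 17.6 to 33.5 CPM in male S64F/+. Its log2 difference was 0.88 ± 0.26 (adjusted p = 0.0171, edgeR), and the adjusted p was 0.0549 in edgeR without male WT 1 and 0.0746 without male S64F/+ 1. Neither receptor was called in females, where the log2 differences were 0.05 ± 0.13 and -0.11 ± 0.23.

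Angpt2, the context-dependent antagonist of TIE2 made by activated endothelium, was 1 of 3 markers below 0 in males and fell in females. Angpt2 stood at 5.80, 9.47, 8.28 and 8.39 CPM in male WT libraries and at 6.63, 6.98, 8.08 and 8.70 CPM in male S64F/+ libraries. The male groups overlapped, with a log2 difference of -0.08 ± 0.17 (adjusted p = 0.787, edgeR). In females Angpt2 stood at 5.89, 10.2, 8.08, 7.38 and 8.47 CPM in female WT libraries and at 4.82, 5.60, 6.19, 4.88 and 4.23 CPM in female S64F/+ libraries. Of the WT libraries, 4 were above every S64F/+ library, and WT 1 lay within the S64F/+ range. The female log2 difference was -0.64 ± 0.16 (adjusted p = 0.00707, edgeR).

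The apelin receptor Aplnr, a receptor of sprouting and venous endothelium, was 3.21-fold higher in male S64F/+. Aplnr stood at 2.60, 5.75, 7.08 and 5.47 CPM in male WT libraries and at 20.2, 14.5, 21.2 and 11.7 CPM in male S64F/+ libraries. Every male S64F/+ library was above every male WT library, and the log2 difference was 1.68 ± 0.35 (adjusted p = 0.00188, edgeR). In females Aplnr stood at 7.42, 9.02, 11.1, 4.21 and 6.84 CPM in female WT libraries and at 11.03, 12.7, 17.9, 7.15 and 6.61 CPM in female S64F/+ libraries, the groups overlapped, and the log2 difference was 0.52 ± 0.31 (adjusted p = 0.252, edgeR).

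Apln, the ligand, was near the threshold in males and was not called in females. Apln stood at 2.65, 2.96, 2.73 and 2.24 CPM in male WT libraries and at 2.67, 3.64, 6.54 and 6.30 CPM in male S64F/+ libraries. Male S64F/+ libraries 3 and 4 were far above the WT libraries and library 1 lay among them, and the log2 difference was 0.85 ± 0.32 (adjusted p = 0.0552, edgeR). Apln was called in males in DESeq2 (adjusted p = 0.0291), with 3 other settings of edgeR (adjusted p from 0.0219 to 0.0499) and in 5 of 18 fits made without a library. In females it stood at 1.98, 2.45, 2.83, 1.80 and 3.26 CPM in female WT libraries and at 2.86, 1.63, 3.32, 1.33 and 1.35 CPM in female S64F/+ libraries, with a log2 difference of -0.23 ± 0.29 (adjusted p = 0.618, edgeR).

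Notch4, the Notch receptor largely restricted to endothelium, was 1.96-fold higher in male S64F/+. Notch4 stood at 15.6, 20.2, 20.1 and 12.6 CPM in male WT libraries and at 31.2, 35.5, 38.2 and 29.6 CPM in male S64F/+ libraries. The male groups did not overlap, and the log2 difference was 0.97 ± 0.16 (adjusted p = 0.000171, edgeR). In females Notch4 stood at 23.9, 28.5, 24.9, 16.8 and 21.4 CPM in female WT libraries and at 20.8, 20.97, 24.00, 22.2 and 18.2 CPM in female S64F/+ libraries, an overlap of the groups with a log2 difference of -0.12 ± 0.14 (adjusted p = 0.583, edgeR). The guidance receptor Robo4, which stabilises vessels, was at 17.8 ± 4.70 CPM in male WT and 29.3 ± 2.87 CPM in male S64F/+ (SD, n = 4 each). Its male log2 difference was 0.71 ± 0.20 (adjusted p = 0.0126, edgeR). Endoglin (Eng), the TGF-beta co-receptor, had a male log2 difference of 0.55 ± 0.21 (adjusted p = 0.0563, edgeR) and missed the threshold. Eng was called with the replicate number as a block (adjusted p = 0.0112, edgeR), in DESeq2 (adjusted p = 0.0207), with 3 other settings of edgeR (adjusted p from 0.021 to 0.0488) and in 7 of 18 fits made without a library. Eng shares 61 exonic bases with Fpgs on the opposite strand, which had 15739 counts over all libraries against 57176 for Eng. The strand setting of the counting is not given in the sources used here. Reads of genes that overlap on opposite strands therefore cannot be told apart.

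Of the 6 adhesion and junction genes, 5 rose in males. Pecam1, the platelet endothelial cell adhesion molecule (GRCm38 chromosome 11, 106654217 to 106750628, minus strand), had the smallest p of the 32. Pecam1 stood at 47.6, 64.3, 66.95 and 50.95 CPM in male WT libraries and at 161, 164, 196 and 156 CPM in male S64F/+ libraries. The lowest male S64F/+ library was above the highest male WT library by more than the whole range of either group, a 2.94-fold difference with a log2 value of 1.56 ± 0.16 (adjusted p = 2.48e-06, edgeR). In females Pecam1 stood at 62.1, 78.7, 79.8, 51.6 and 64.6 CPM in female WT libraries and at 77.5, 98.2, 106, 80.1 and 63.3 CPM in female S64F/+ libraries. The female groups overlapped, with a log2 difference of 0.34 ± 0.14 (adjusted p = 0.104, edgeR). With the replicate number as a block, Pecam1 was called in females (adjusted p = 0.0206, edgeR).

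Icam2, a leukocyte ligand kept at endothelial junctions, was the only marker that rose in both sexes. Icam2 stood at 2.65, 3.92, 3.19 and 3.04 CPM in male WT libraries and at 8.21, 6.51, 6.97 and 7.01 CPM in male S64F/+ libraries. In females it stood at 3.17, 4.36, 4.35, 4.35 and 3.82 CPM in female WT libraries and at 5.01, 5.51, 8.06, 5.55 and 3.92 CPM in female S64F/+ libraries. The male groups were apart, and in females S64F/+ 5 lay within the WT range. The log2 differences were 1.16 ± 0.19 (adjusted p = 0.000196, edgeR) in males and 0.48 ± 0.17 (adjusted p = 0.0482, edgeR) in females. The female call did not hold under the replicate block (adjusted p = 0.0664, edgeR), with 3 other settings of edgeR (adjusted p from 0.0802 to 0.103) nor in 14 of 18 fits made without a library, up to 0.155 without female S64F/+ 3.

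VE-cadherin (Cdh5), the core of the endothelial adherens junction, ranged from 25.6 to 38.9 CPM in male WT and from 52.7 to 70.5 CPM in male S64F/+, with a log2 difference of 0.94 ± 0.16 (adjusted p = 0.000228, edgeR). Esam, a tight junction adhesion molecule, had a male log2 difference of 0.74 ± 0.14 (adjusted p = 0.000566, edgeR). Both were close to 0 in females, at 0.02 ± 0.14 and 0.12 ± 0.12. The tight junction claudin Cldn5 was low throughout. Cldn5 stood at 0.221, 0.481, 0.465 and 1.25 CPM in male WT libraries and at 3.39, 2.53, 2.09 and 0.977 CPM in male S64F/+ libraries. Male WT 4 was above male S64F/+ 4, and the log2 difference was 1.88 ± 0.64 (adjusted p = 0.0356, edgeR). Leaving out any of 6 male libraries took the Cldn5 call away, up to an adjusted p of 0.102 in edgeR without male S64F/+ 1, and it was 0.0709 with no low-count filter. Ptprb, the phosphatase VE-PTP that restrains TIE2, was not called in males at 0.68 ± 0.26 (adjusted p = 0.0641, edgeR), although its male groups did not overlap. It was called in DESeq2 (adjusted p = 0.0183), with library-size scaling and with only the compared groups (adjusted p = 0.0308 and 0.03, edgeR), and in 3 of 18 fits made without a library.

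The surface glycoproteins were mixed. Plvap, which forms the diaphragms of fenestrae, ranged from 125 to 174 CPM in male WT and from 253 to 314 CPM in male S64F/+, with a log2 difference of 0.85 ± 0.14 (adjusted p = 0.000182, edgeR). In females its log2 difference was 0.30 ± 0.12 (adjusted p = 0.0907, edgeR). Endomucin (Emcn) and the C-type lectin Clec14a were not called in either sex. Their male log2 differences were 0.20 ± 0.20 and 0.28 ± 0.16, and their female values were 0.01 ± 0.18 and 0.14 ± 0.14. With library-size scaling Clec14a was called in males (adjusted p = 0.0467, edgeR).

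Lyve1, the hyaluronan receptor of lymphatic endothelium that some tissue macrophages also carry (GRCm38 chromosome 7, 110850607 to 110863239, minus strand), fell in both sexes. Lyve1 stood at 17.2, 10.8, 13.6 and 11.4 CPM in male WT libraries and at 4.21, 3.98, 5.33 and 4.35 CPM in male S64F/+ libraries. In females it stood at 24.97, 11.9, 14.8, 18.03 and 13.97 CPM in female WT libraries and at 6.15, 3.92, 6.85, 6.55 and 3.97 CPM in female S64F/+ libraries. Every S64F/+ library was below every WT library within each sex, a fall to 0.34 of the WT level in males and 0.33 in females. The log2 differences were -1.56 ± 0.23 (adjusted p = 7.83e-05, edgeR) in males and -1.61 ± 0.21 (adjusted p = 2.21e-05, edgeR) in females. Of 7 tested lymphatic markers, which include Lyve1, Flt4 and Sox18, 3 rose and 1 fell in males, and 2 rose and 2 fell in females. These are 42.9% and 14.3% in males, where all tested genes had 15.3% and 12.3%. In females they are 28.6% each way, where all tested genes had 10.2% and 11%. The secreted matrix protein Reln rose in both sexes, with log2 differences of 1.42 ± 0.48 (adjusted p = 0.0381, edgeR) in males and 2.49 ± 0.44 (adjusted p = 0.000851, edgeR) in females. Prox1, the lymphatic master factor that islet endocrine cells also make, rose in both sexes too, by 0.49 ± 0.13 (adjusted p = 0.00729, edgeR) and 0.40 ± 0.11 (adjusted p = 0.0172, edgeR) on the log2 scale. Podoplanin (Pdpn), which fibroblasts and other cells also carry, rose in males by 2.91 ± 0.54 (adjusted p = 0.000616, edgeR) on the log2 scale and was 0.30 ± 0.46 (adjusted p = 0.699, edgeR) in females. Mmrn1 was under 1 CPM on average in every group. The macrophage receptor Cd163, carried by many Lyve1-positive macrophages, rose in both sexes, with log2 differences of 2.74 ± 0.64 (adjusted p = 0.00373, edgeR) in males and 1.87 ± 0.57 (adjusted p = 0.0264, edgeR) in females. Mrc1, another receptor of such macrophages, rose in males by 2.79 ± 0.52 (adjusted p = 0.000684, edgeR) on the log2 scale and was 1.25 ± 0.45 (adjusted p = 0.0567, edgeR) in females.

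Esm1 (endocan), a proteoglycan secreted by VEGF-stimulated tip cells (GRCm38 chromosome 13, 113209659 to 113218098, plus strand), also fell in both sexes. Esm1 stood at 54.2, 73.3, 71.2 and 48.7 CPM in male WT libraries and at 28.02, 15.2, 12.8 and 13.5 CPM in male S64F/+ libraries. In females it stood at 63.7, 85.8, 75.9, 54.9 and 57.7 CPM in female WT libraries and at 35.3, 24.8, 61.6, 20.1 and 24.1 CPM in female S64F/+ libraries. The male groups were apart. In females 4 of the 5 S64F/+ libraries were below every WT library, and S64F/+ 3 lay within the WT range. The fall was to 0.28 of the WT level in males and 0.49 in females, with log2 differences of -1.82 ± 0.33 (adjusted p = 0.000737, edgeR) and -1.03 ± 0.29 (adjusted p = 0.0189, edgeR). Vegfa, a known inducer of Esm1 in endothelium, was at 463 ± 48.98 CPM in male WT and 465 ± 9.64 CPM in male S64F/+ (SD, n = 4 each), with an adjusted p of 0.984 in edgeR. These are RNA levels of whole islets and not of the VEGF-A protein, and a part of VEGF in the fall of Esm1 was not tested.

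Von Willebrand factor (Vwf), stored in endothelial Weibel-Palade bodies and in platelets (GRCm38 chromosome 6, 125546774 to 125686679, plus strand), had the largest male log2 difference of the 32. Vwf stood at 2.93, 5.82, 5.19 and 10.5 CPM in male WT libraries and at 70.4, 34.97, 69.2 and 37.9 CPM in male S64F/+ libraries. The male groups were apart, an 8.65-fold difference with a log2 value of 3.11 ± 0.81 (adjusted p = 0.0105, edgeR). In females Vwf stood at 2.69, 24.9, 24.7, 3.53 and 4.22 CPM in female WT libraries and at 11.5, 8.37, 14.1, 14.9 and 1.65 CPM in female S64F/+ libraries. Female WT 2 and 3 were the highest of the 10 female libraries, WT 1, 4 and 5 lay below 4 of the 5 S64F/+ libraries, and S64F/+ 5 was the lowest. The female log2 difference was -0.24 ± 0.68 (adjusted p = 0.841, edgeR). Among 9 measured megakaryocyte and platelet markers, the summed level was 4.52 to 14.8 CPM in male WT and 7.06 to 8.46 CPM in male S64F/+, and 5.65 to 7.91 CPM and 6.17 to 12.2 CPM in female WT and S64F/+. Of 4 tested, Gp9, a subunit of the platelet receptor for Vwf, rose in both sexes, with log2 differences of 2.42 ± 0.57 (adjusted p = 0.00406, edgeR) in males and 1.94 ± 0.48 (adjusted p = 0.00775, edgeR) in females. None of the 4 fell in edgeR, with 1 below 0 at an unadjusted p under 0.05 in each sex, and DESeq2 called 1 lower in males and 2 higher in females. The platelet factor Pf4 averaged under 1 CPM in every group.

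Egfl7, a secreted matrix protein of sprouting vessels, and Mmrn2, a matrix ligand of Clec14a, also rose in males. Their log2 differences were 0.50 ± 0.18 (adjusted p = 0.046, edgeR) and 0.93 ± 0.17 (adjusted p = 0.000435, edgeR). The Egfl7 call did not hold in 9 of 18 fits made without a library, up to an adjusted p of 0.153 in edgeR without male S64F/+ 1. Egfl7 shares 459 exonic bases with overlapping genes, among them Agpat2 on the opposite strand. Those genes together had 10902 counts over all libraries against 21040 for Egfl7. Nos3, the endothelial nitric oxide synthase, ranged from 5.58 to 8.88 CPM in male WT and from 11.3 to 16.3 CPM in male S64F/+, with a log2 difference of 0.85 ± 0.17 (adjusted p = 0.000881, edgeR). It shares 1334 of its 4132 exonic bases with opposite-strand genes, which together had 418 counts over all libraries against 7154 for Nos3.

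Of the 6 transcription factors 5 rose in males. Sox17, the SOX F factor of arterial identity (GRCm38 chromosome 1, 4490931 to 4497354, minus strand), was 3.93-fold higher. Sox17 stood at 1.60, 2.65, 3.59 and 2.01 CPM in male WT libraries and at 9.82, 9.60, 11.8 and 7.82 CPM in male S64F/+ libraries. The male groups were apart, and the log2 difference was 1.97 ± 0.33 (adjusted p = 0.000254, edgeR). In females it stood at 2.88, 5.19, 4.02, 2.91 and 2.10 CPM in female WT libraries and at 3.25, 4.80, 8.64, 4.19 and 3.06 CPM in female S64F/+ libraries, the groups overlapped, and the log2 difference was 0.47 ± 0.29 (adjusted p = 0.26, edgeR). Sox17 shares 804 exonic bases with the opposite-strand transcript Gm37587, which had 13 counts over all libraries. Of its SOX F relatives, Sox7 rose in males and Sox18 was not called, with log2 differences of 0.80 ± 0.20 (adjusted p = 0.00644, edgeR) for Sox7 and 0.23 ± 0.17 (adjusted p = 0.348, edgeR) for Sox18.

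Erg, the ETS factor that maintains endothelial identity, was 2.05-fold higher in male S64F/+. Erg stood at 4.09, 6.08, 7.18 and 6.45 CPM in male WT libraries and at 12.4, 10.96, 15.2 and 10.3 CPM in male S64F/+ libraries. In females it stood at 6.42, 8.42, 9.02, 5.58 and 5.12 CPM in female WT libraries and at 6.26, 7.75, 7.43, 5.69 and 5.09 CPM in female S64F/+ libraries. The male groups were apart and the female groups overlapped, with log2 differences of 1.03 ± 0.21 (adjusted p = 0.000991, edgeR) and -0.10 ± 0.18 (adjusted p = 0.737, edgeR). Ets1, an ETS factor shared with lymphocytes, had log2 differences of 0.77 ± 0.15 (adjusted p = 0.00104, edgeR) in males and -0.16 ± 0.14 (adjusted p = 0.455, edgeR) in females. Tal1 (SCL), a factor of blood and endothelial progenitors, was the lowest of the 32 per kilobase. Tal1 stood at 0.718, 1.06, 1.33 and 0.797 CPM in male WT libraries and at 3.44, 1.73, 1.82 and 2.08 CPM in male S64F/+ libraries. The male groups were apart, with a log2 difference of 1.21 ± 0.34 (adjusted p = 0.0119, edgeR), and the adjusted p was 0.0585 in edgeR without male S64F/+ 1.

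None of 10 further markers was called in females by edgeR with all libraries. Cldn5, the main claudin of endothelial tight junctions, stood at 0.288, 2.12, 1.48, 0.355 and 0.684 CPM in female WT libraries and at 0.731, 1.28, 1.95, 0.922 and 0.476 CPM in female S64F/+ libraries, with a log2 difference of 0.10 ± 0.55. Tal1, a factor of endothelial and blood cell lineages, stood at 0.891, 2.30, 1.35, 0.899 and 1.56 CPM in female WT libraries and at 1.46, 1.81, 1.91, 1.04 and 1.01 CPM in female S64F/+ libraries, with a log2 difference of 0.03 ± 0.30. The groups overlapped for both genes. The female log2 differences were 0.08 ± 0.18 for the guidance receptor Robo4, 0.04 ± 0.18 for the TGF-beta co-receptor Eng and -0.44 ± 0.23 for the vascular phosphatase Ptprb. Without female WT 4, Ptprb, Kdr and Flt1 were called lower in females (adjusted p = 0.0432, 0.0319 and 0.0305, edgeR). The female log2 differences were 0.02 ± 0.16 for Egfl7, -0.10 ± 0.15 for Mmrn2 and -0.21 ± 0.15 for the nitric oxide synthase Nos3. The SOX F factors Sox7 and Sox18 had values of 0.26 ± 0.18 and 0.09 ± 0.15.

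**Figure D2:**
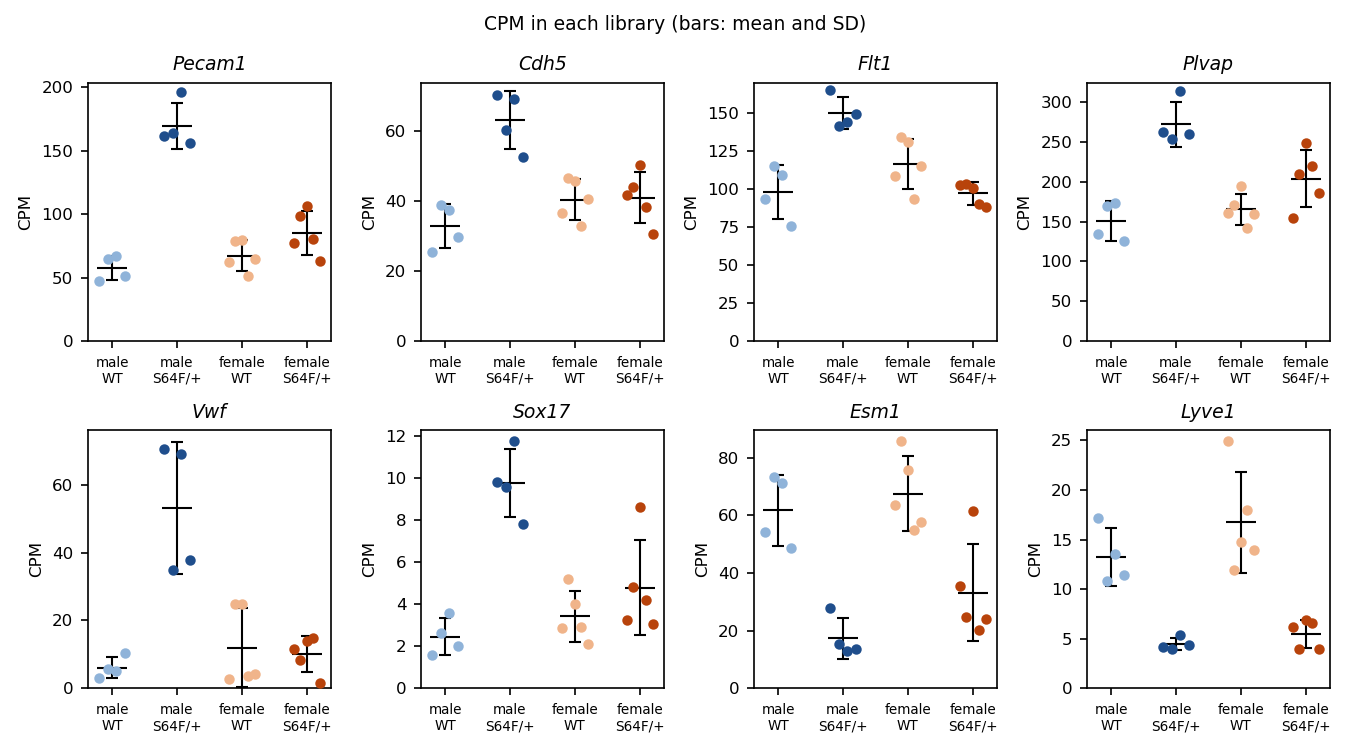
CPM in each of the 18 libraries (points), with the group mean and SD as bars, for Pecam1, Cdh5, Flt1, Plvap, Vwf, Sox17, Esm1 and Lyve1, with the 4 groups on the horizontal axis. For Pecam1 the 4 male S64F/+ libraries sit between 156 and 196 CPM, above all other libraries, and for Lyve1 all S64F/+ libraries sit below all WT libraries of their sex.

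Across all 32, the male groups did not overlap for 19 markers higher in S64F/+, among all tested genes 17.8%, and for 2 markers lower, among all tested genes 17.3%. In females 1 marker rose and 4 fell, where 10.2% of all tested genes were called higher and 11% lower, and 27 were not called. The female groups did not overlap for 0 markers higher and 1 lower (Lyve1), against 5.28% and 6.36% of all tested genes. The female median log2 difference was 0.01, beside 0.02 over all tested genes.

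Whether the genotype effect differed between the sexes was tested as the male minus the female effect. This difference was called above 0 for 9 of the 32 markers, against 2.87% of all tested genes. It was called below 0 for 0 markers in edgeR, against 1.6% of all tested genes, with 0 below 0 at an unadjusted p under 0.05 and 0 in DESeq2. The 9 were Flt1, Tie1, Notch4, Pecam1, Cdh5, Mmrn2, Nos3, Erg and Ets1. Pecam1 had a difference of 1.22 ± 0.22 (adjusted p = 0.00926, edgeR), Erg of 1.14 ± 0.27 (adjusted p = 0.0288, edgeR) and Notch4 of 1.10 ± 0.21 (adjusted p = 0.0112, edgeR). The other 6 lay between 0.87 and 1.06. Without male WT 4, the calls of Tie1, Cdh5, Erg and Ets1 were lost, at adjusted p from 0.056 to 0.0603 in edgeR. The Erg call was lost in 6 of 18 fits made without a library, up to 0.066 in edgeR without male S64F/+ 3, and those of Tie1 and Cdh5 also without male S64F/+ 1. With the replicate block Esam, Plvap and Sox17 were called above 0 as well (adjusted p = 0.0331, 0.0468 and 0.018, edgeR). At an unadjusted p under 0.05 the difference was above 0 for 24 markers, and the median over the 32 was 0.87, beside 0.01 over all tested genes. For Lyve1 it was 0.05 ± 0.31 (adjusted p = 0.945, edgeR), and for Esm1, the 1 marker below 0, it was -0.79 ± 0.43 (adjusted p = 0.272, edgeR). The count of 9 was 5 without male WT 4, 17 without female WT 4 and 15 without female S64F/+ 3, and it was 15 with library-size scaling and 16 in DESeq2. The calls above 0 over all tested genes moved too. They were 527 with all libraries and 205, 976 and 578 in the same fits without a library. With library-size scaling they were 1031, and in DESeq2 1107.

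The sex comparison within each genotype gave the other view of the same values. In WT islets 0 of the 32 were called higher and 0 lower in males than in females by edgeR, against 1.73% and 0.637% of all tested genes. DESeq2 also called 0, and 5 markers had an unadjusted p under 0.05. The WT median log2 difference was -0.27, male minus female, beside -0.04 over all tested genes, and 27 of the 32 were below 0. The WT groups did not overlap for 0 markers higher in males, against 4.21% of all tested genes, and for 1 lower (Tie1), against 3.25%. In S64F/+ islets 16 of the 32 were called higher in males, against 8% of all tested genes. None was called lower by edgeR, against 8.12% of all tested genes, while DESeq2 called Esm1 lower, also the 1 marker below 0 at an unadjusted p under 0.05. The 16 included Pecam1 at 0.99 ± 0.15 (adjusted p = 0.00064, edgeR), Apln at 1.20 ± 0.30 (adjusted p = 0.0143, edgeR) and Vwf at 2.40 ± 0.72 (adjusted p = 0.0372, edgeR). The Vwf call did not hold with no low-count filter (adjusted p = 0.0712, edgeR) nor in 8 of 18 fits made without a library, from 0.0511 without female S64F/+ 3 to 0.0853 without male S64F/+ 1. The Apln call did not hold with only the compared groups (adjusted p = 0.0519, edgeR) nor without male S64F/+ 3 (adjusted p = 0.0551, edgeR). The S64F/+ groups did not overlap for 14 markers higher in males, against 7.91% of all tested genes, and for 0 lower, against 8.27%. The count of 16 was 8 without male S64F/+ 3, 10 without female S64F/+ 4 and 9 without female S64F/+ 5. Over all tested genes the calls higher in males fell as well, from 1470 to 899, 931 and 915 in the same fits. These comparisons share libraries with the genotype comparisons and are not independent of them.

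**Figure D3:**
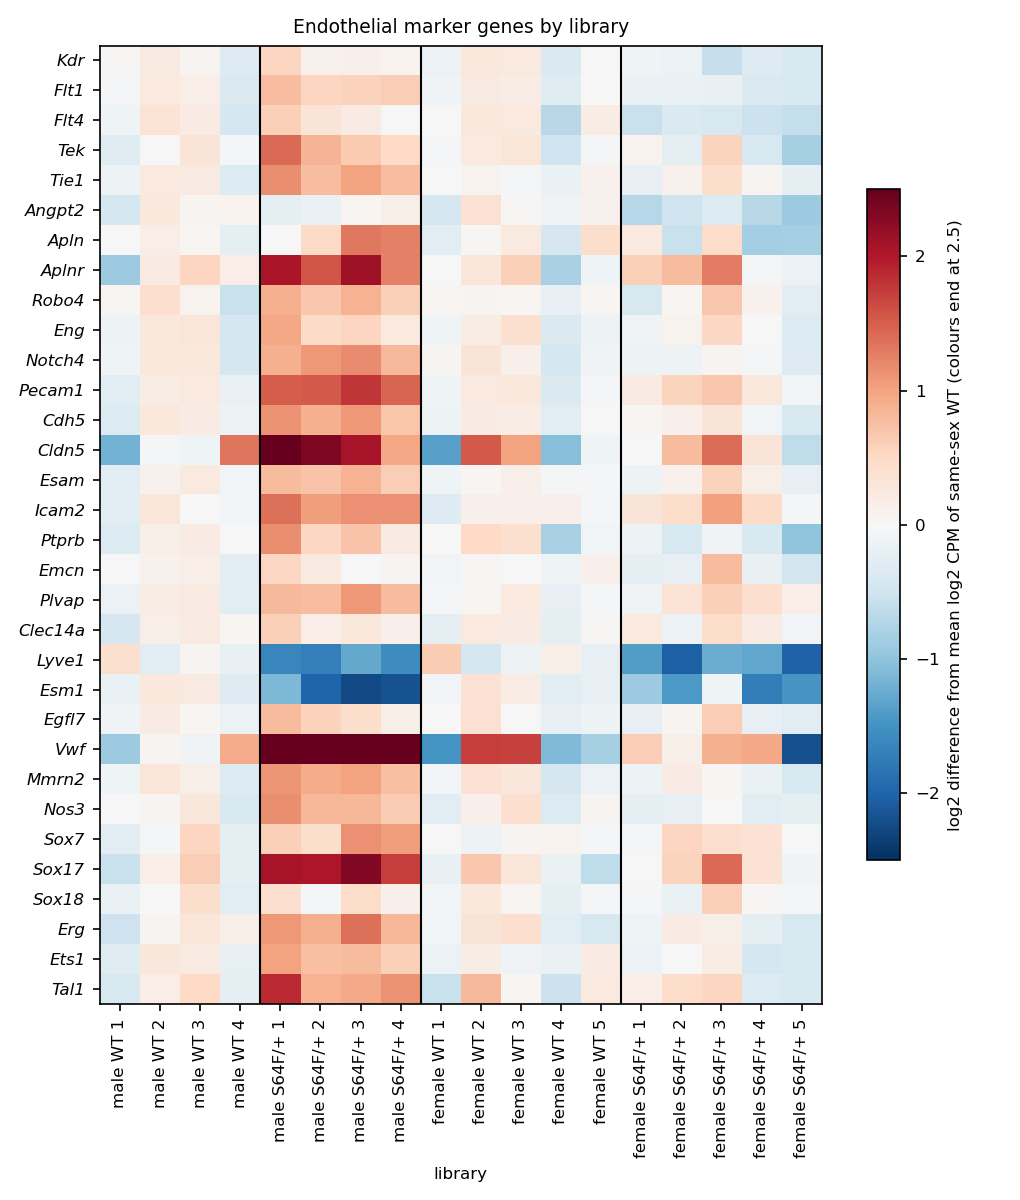
Log2 CPM in each library minus the mean log2 CPM of the WT libraries of the same sex, for the 32 markers (rows, ordered by role) and the 18 libraries (columns, by group and replicate number); colours end at 2.5 in either direction. The 4 male S64F/+ columns are raised for most rows, lowered for Lyve1 and Esm1 and near the WT mean for Angpt2.

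Within a group the same library was often the highest or the lowest across genes. Female S64F/+ 3 was the highest of its group for 25 of the 32 markers, and female S64F/+ 5 was the lowest for 21. In female WT, library 4 was the lowest for 22. In male S64F/+, library 1 was the highest for 20 and library 4 the lowest for 19. The summed level of the 32 was 780.1 to 1063 CPM in male WT and 1329 to 1683 CPM in male S64F/+, which did not overlap. In females it was 875 to 1268 CPM in WT and 856 to 1299.7 CPM in S64F/+.

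Levels of different genes were compared per kilobase of merged exons. Plvap was highest in male WT at 75.9 ± 12.4 CPM per kilobase (SD, n = 4), followed by Esm1 at 29.5 ± 5.85. Kdr at 14.4 ± 2.18 and Eng at 14.3 ± 3.25 did not differ beyond their spread, nor did Sox18 at 10.4 ± 2.39 and Pecam1 at 9.23 ± 1.54. Tal1 was lowest at 0.223 ± 0.0633 CPM per kilobase. In male S64F/+ Pecam1 stood at 27.2 ± 2.90 CPM per kilobase and was second to Plvap at 137 ± 14.2, while Esm1 was at 8.30 ± 3.41. The lengths behind the deposited FPKM exceed the merged exons by more than 2-fold for 10 of the 32 genes, so FPKM would order them differently.

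**Figure D4:**
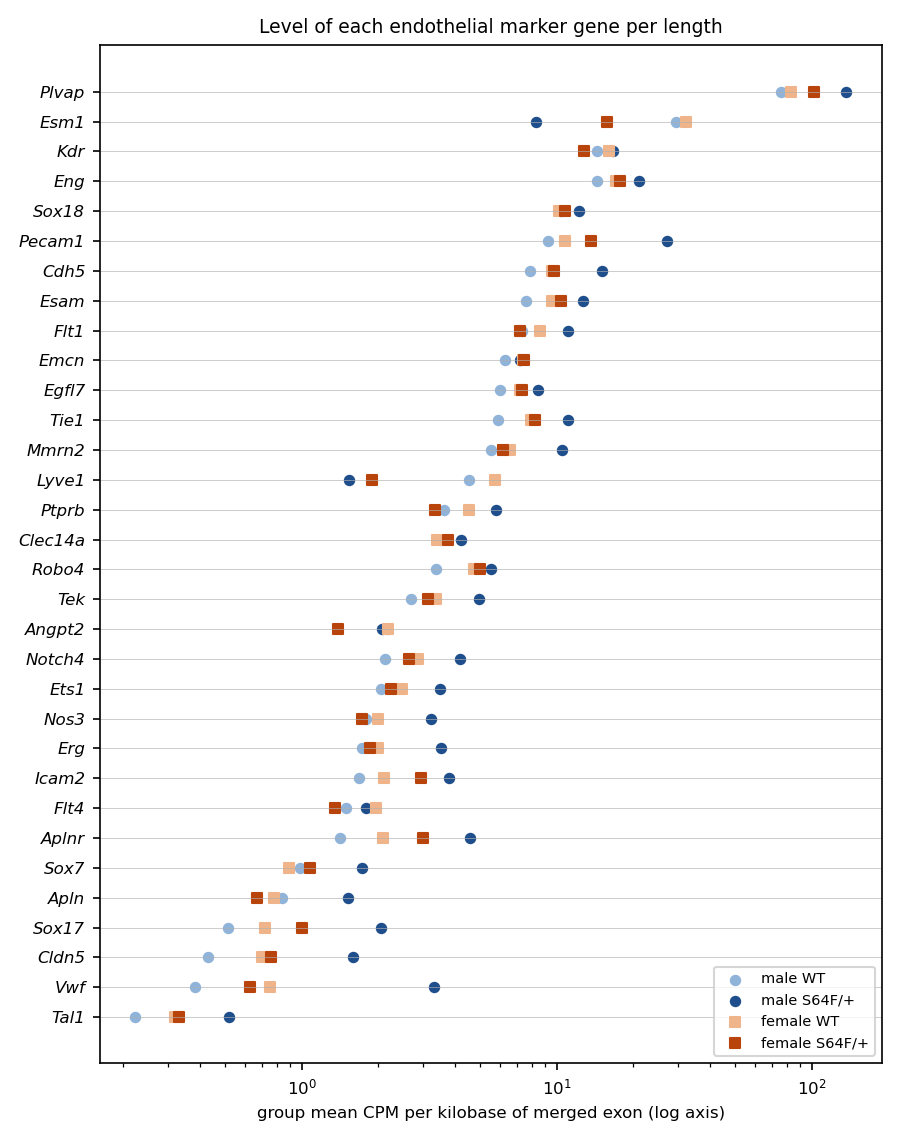
Level per kilobase of merged exons (CPM per kilobase, log axis) of the 32 markers in the 4 groups, as group means, ordered by the male WT mean. Plvap is highest in all groups, and Esm1, the second in male WT, is lower in male S64F/+ at 8.30 CPM per kilobase.

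Other genes of the same pathways were described from lists of ligands, regulators and vessel proteins that exclude the 32 and share genes with one another. Their counts stand beside the shares of all tested genes, 15.3% called higher and 12.3% lower in males, and 10.2% and 11% in females. Of 31 tested ligands and co-receptors, 18 rose and 1 fell in males, 58.1% and 3.23%. In females 2 rose and 4 fell, 6.45% and 12.9%, where all tested genes had 10.2% and 11%. The neuropilin partner ligand Sema3f rose in males with a log2 difference of 1.18 ± 0.12 (adjusted p = 1.76e-06, edgeR), and Pdgfb, the endothelial signal that recruits pericytes, rose by 0.92 ± 0.14 (adjusted p = 0.000101, edgeR). Vegfb, a ligand of Flt1, fell in both sexes, with log2 differences of -0.73 ± 0.10 (adjusted p = 4.18e-05, edgeR) in males and -0.28 ± 0.09 (adjusted p = 0.0321, edgeR) in females. The Notch ligand of tip cells, Dll4, fell in females with a log2 difference of -0.71 ± 0.12 (adjusted p = 0.000225, edgeR), and was -0.07 ± 0.13 in males. Angpt1, the TIE2 agonist, rose in males by 1.34 ± 0.37 (adjusted p = 0.0108, edgeR) on the log2 scale, from a mean of 1.10 ± 0.283 to 2.77 ± 1.44 CPM (SD, n = 4 each).

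Of 26 tested endothelial transcription factors and Notch targets, 13 rose and 2 fell in males, 50% and 7.69%. In females 3 rose and 3 fell, 11.5% each way, near the 10.2% and 11% of all tested genes. The flow-responsive factor Klf2 rose in males by 1.55 ± 0.24 (adjusted p = 0.000164, edgeR) on the log2 scale, and it was also called higher in females. Bcl6b fell in both sexes with log2 differences of -0.94 ± 0.15 (adjusted p = 0.000151, edgeR) and -0.74 ± 0.13 (adjusted p = 0.000671, edgeR). Foxo1 fell in both sexes as well, and is also expressed by beta cells. Of 44 other capillary and pan-endothelial genes, 36 rose, 81.8%, and 0 fell in males by edgeR (1 below 0 at an unadjusted p under 0.05, 0 fell in DESeq2). In females 5 rose, 11.4% and near the 10.2% of all tested genes, and 3 rose without female WT 1. The female median log2 difference of the 44 was 0.13. Their summed level was 733 to 983 CPM in male WT and 1618 to 1842 CPM in male S64F/+, which did not overlap. In females it was 804 to 1062 CPM in WT and 1133 to 1433 CPM in S64F/+, which did not overlap either. Cd34, a glycoprotein of capillaries and progenitors, ranged from 17.02 to 26.1 CPM in male WT and from 60.6 to 73.3 CPM in male S64F/+, with a log2 difference of 1.54 ± 0.17 (adjusted p = 3.04e-06, edgeR). Cd34 was also called higher in females, and its male minus female effect was called above 0. The matrix protein Sparcl1 rose in both sexes, on the log2 scale by 2.82 ± 0.18 (adjusted p = 2.03e-08, edgeR) in males and 2.25 ± 0.16 (adjusted p = 4.24e-08, edgeR) in females.

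Among 13 tested genes of endothelial activation and leukocyte adhesion, 10 rose in males, 76.9%, and 3 in females, 23.1% against 10.2% of all tested genes. The 3 in females were Cd74, Ccl2 and Tifa, and the 10 in males also held Cd74 and Ccl2. Cd74 had the smallest p of the called genes in both sexes. Which cells made the RNA of these genes was not tested. P-selectin (Selp), stored with Vwf in Weibel-Palade bodies, was 0.221 to 0.399 CPM in male WT and 4.32 to 9.91 CPM in male S64F/+, at a log2 difference of 4.12 ± 0.76 (adjusted p = 0.000666, edgeR). In females it was 0.59 ± 0.61, and the male minus female effect was 3.54 ± 0.96 (adjusted p = 0.0462, edgeR). On the log2 scale Vcam1 rose in males by 2.95 ± 0.50 (adjusted p = 0.000357, edgeR) and Icam1 by 2.14 ± 0.33 (adjusted p = 0.000103, edgeR). Of 15 tip cell and sprouting genes outside the 32, 10 rose in males, 66.7%. Among these 10, Cd34, Lama4, Pdgfb, Col4a1, Col4a2 and Adm are also counted in the ligand, capillary or basement membrane lists. In females 2 rose and 2 fell, 13.3% each way and near the 10.2% and 11% of all tested genes, or 1 rose without female WT 1 or without female S64F/+ 4. The male minus female effect was called above 0 for 8 of the 15, 53.3% against 2.87% of all tested genes, and for 5 without male WT 4. All of the 8 except Plaur are also counted in those other lists, so the tip cell count is not separate from theirs. Esm1, Angpt2 and Apln, which are also tip cell genes, were not called higher in males.

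The vascular basement membrane, which endothelial cells lay down and share with pericytes, had 20 of 22 tested genes, 90.9%, called higher in male S64F/+. In females 0 rose or fell by edgeR, with 1 above and 1 below 0 at an unadjusted p under 0.05 and 1 called higher in DESeq2. The male minus female effect was called above 0 for 16 of them, 72.7%, against 2.87% of all tested genes. Lama5, a laminin chain of vascular basement membranes, rose in males by 1.79 ± 0.19 (adjusted p = 2.38e-06, edgeR) on the log2 scale, and Col4a1 ranged from 268 to 414 CPM in male WT and from 571 to 657 CPM in male S64F/+. The summed level was 976 to 1510.1 CPM in male WT and 2487 to 3076 CPM in male S64F/+, and 1182 to 1817 CPM and 1129 to 1696 CPM in female WT and S64F/+.

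Markers of several other cell types moved with the endothelial genes in males, where 15.3% of all tested genes were called higher and 12.3% lower. Of 14 pericyte and vascular smooth muscle markers 11 rose, with summed levels of 184 to 299 CPM in WT and 460.3 to 607 CPM in S64F/+. Of 14 stellate cell and fibroblast markers 13 rose, with sums of 144 to 417 CPM and 1399 to 2289 CPM. Pecam1, Icam2, Ets1 and Tal1 are also expressed by blood cells, and all 7 pan-leukocyte markers rose, with sums of 22.7 to 31.7 CPM and 54.5 to 67.4 CPM. Of 12 macrophage and monocyte markers 7 rose and 1, C1qa, fell, with sums over 13 measured genes of 95.3 to 135 CPM and 136 to 175 CPM. Of 12 ductal markers 9 rose, with sums of 639.9 to 690.2 CPM and 963 to 1138 CPM, or 6 without male WT 3, and 0 fell in edgeR (1 below 0 at an unadjusted p under 0.05, 1 fell in DESeq2). Of 10 Schwann cell markers 5 rose, or 8 without female S64F/+ 3 and 9 with only the compared groups, with sums of 42.5 to 53.6 CPM and 97.6 to 116 CPM. Of 12 beta cell markers 11 fell, with sums of 212870.0 to 290402 CPM and 127032 to 141214 CPM. Of 11 acinar markers 0 were called in edgeR or DESeq2 and 0 had an unadjusted p under 0.05 in edgeR, with sums of 3079 to 30314 CPM and 4536 to 19185 CPM. Of 5 tested lymphocyte markers Cd4 rose and Cd79a fell in both sexes. Of 5 tested red blood cell markers 0 were called in either sex by edgeR or DESeq2, and 0 had an unadjusted p under 0.05. Their part in the endothelial result was not tested.

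In females, where 10.2% of all tested genes were called higher and 11% lower, the pan-leukocyte markers rose for 7 of 7, or 4 of 7 without female WT 1, without female S64F/+ 1 or with the replicate block, with sums of 22.1 to 33.2 CPM in WT and 33.6 to 60.8 CPM in S64F/+. The pericyte list had 1 of 14 called higher, or 0 without female WT 1, 4 or 5 or female S64F/+ 3, and sums of 214 to 371 CPM and 208 to 398 CPM. The stellate list had 1 of 14 called higher, which did not hold in 12 of 18 fits made without a library, and sums of 186 to 742 CPM and 188 to 929.6 CPM. Of 12 macrophage and monocyte markers 6 rose, or 8 in DESeq2 and 4 without female WT 1 or with only the compared groups, with sums of 83.1 to 121 CPM and 107 to 191 CPM. Of the ductal markers 4 rose, with sums of 611 to 694 CPM and 717 to 824 CPM that did not overlap. Of the Schwann cell markers 1 rose, or 2 in DESeq2, with sums of 39.8 to 60.4 CPM and 64.5 to 129 CPM that did not overlap either. Of 11 acinar markers 0 were called in edgeR or DESeq2 and 0 had an unadjusted p under 0.05, with sums of 12392 to 47642 CPM and 17206 to 40807 CPM. Of the beta cell markers 10 fell, with sums of 167927 to 308672 CPM and 132691 to 244813 CPM. Their part in the endothelial values was not tested. The plot of summed marker levels shows the pericyte, stellate, macrophage and pan-leukocyte sums library by library.

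**Figure D5:**
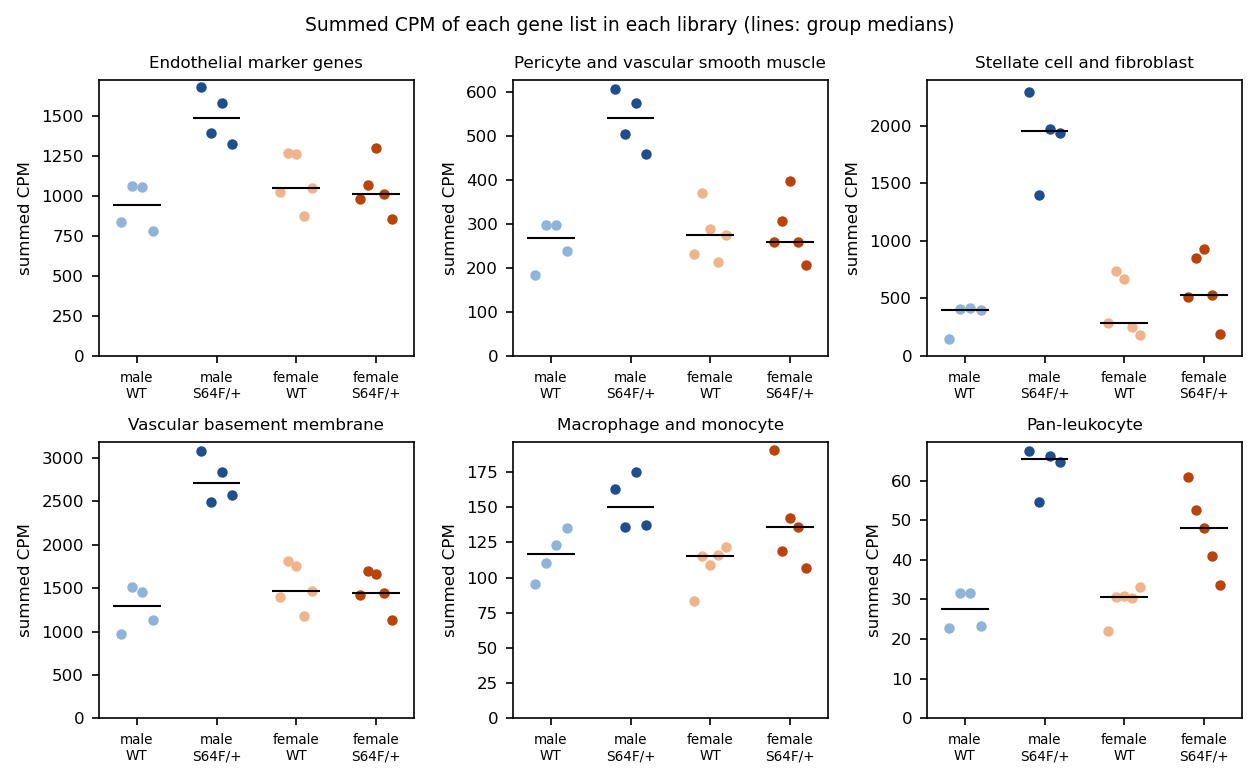
Summed CPM of the 32 endothelial markers, of pericyte, stellate, macrophage and pan-leukocyte markers and of vascular basement membrane genes in each of the 18 libraries (points), by group, with lines at the group medians. Every male S64F/+ library lies above every male WT library in each panel.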

How the data were processed

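RNA-seq of whole islets was measured in 18 libraries. The authors deposited a raw read count per gene and library on GRCm38, and FPKM values that equal the count divided by the library total and 1 length per gene. The FPKM values were not tested. Per the submitters' processing notes, the tools were FastQC and MultiQC, STAR, featureCounts and DESeq2, listed without versions. No source used here gives the annotation or the strand setting. The 99 features that are not mouse genes had 0 counts and were left out.

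The tests used edgeR 4.0.16, with limma 3.58.1, under R 4.3.3. After filterByExpr (minimum count 10, minimum total 15) the libraries were scaled by TMM and fitted together with 1 robust quasi-likelihood model and 1 coefficient per group. Tests were two-sided, and p-values were adjusted by Benjamini-Hochberg over the 18364 genes of each contrast, with a threshold of 0.05. The biological coefficient of variation was 24.4%. The procedure was tested on simulated data. Alternatives were RLE and library-size scaling, other filters, DESeq2 1.42.0, only the compared groups, a replicate block, and leaving out each library. The depth per library sets the precision of low genes, and 18 libraries limit that of all.

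Same-numbered female libraries deviated together in all 5 pairs (correlations of 0.110 to 0.418 on log2 CPM with a prior count of 2, and 0.0921 to 0.449 on log2 of CPM plus 0.5), on the first scale just over the criterion of 0.1. Female libraries of different numbers ran from -0.389 to 0.494 on the first scale, the highest for WT 4 with S64F/+ 5. The correlations therefore do not establish that the numbers mark pairs. The values printed come from the fit without the replicate block, and its value is given where it changed a call. Male correlations ran from -0.249 to 0.189 and did not pair the libraries. The 32 genes and the other lists were chosen with earlier results of these data known. All 32 are named. Every library's value is given for the 12 genes with the largest called differences and for Angpt2 and Flt4, and of the other lists mainly the called genes of smallest p are named. Other genes named for their role (Vegfa, Angpt1, Dll4, Prox1, Reln, Pdpn, Mmrn1, C1qa, Cd163, Mrc1, Gp9, Pf4, Cd4, Cd79a) were added after their values were seen. Coordinates came from GENCODE M21 and promoters from RefSeq GRCm38.p6.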

Additional observations from a re-analysis of the deposited data

Results flagged for a closer look

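In 8 of the 128 groups of 4 or 5 libraries checked (32 genes in 4 groups), 1 library stood far from the others of its group. Chance flags about 1 in 20 such groups. Male S64F/+ 1 was high for Kdr, at 187 CPM against 136 to 140.0 CPM in the other 3, and for Esm1, at 28.0 CPM against 12.8 to 15.2 CPM. Male S64F/+ 3 was high for Plvap, at 314 CPM against 253 to 262 CPM. Female S64F/+ 3 was high for Emcn at 68.9 CPM, for Sox18 at 24.6 CPM and for Nos3 at 8.10 CPM, against highest values of 35.3, 16.8 and 7.05 CPM in the other 4. In female WT, library 4 was low for Robo4 at 21.8 CPM against 25.9 to 26.2 CPM, and library 2 was high for Egfl7 at 33.1 CPM against 22.03 to 25.2 CPM.

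For 9 genes the genotype effect differed between males and females by a test of the difference itself, with edgeR's adjusted p under the threshold. The male minus female log2 difference was 0.87 for Flt1, 0.87 for Tie1, 1.10 for Notch4, 1.22 for Pecam1, 0.92 for Cdh5, 1.03 for Mmrn2, 1.06 for Nos3, 1.14 for Erg and 0.93 for Ets1.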

How the results depend on the processing

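No marker reversed direction past the threshold in any alternative run. Over the 32 markers and 5 contrasts, and leaving aside fits without a library, 1006 values kept their side of the threshold, 39 moved past it and 11 fell short of it. In fits without a library the numbers were 2749, 43 and 88. The count of markers higher in female S64F/+ was 0 in place of 1 with library-size scaling, with no low-count filter and with only the compared groups. The markers with a male effect above the female effect numbered 15 with library-size scaling and 16 in DESeq2, in place of 9. The markers lower in male than in female S64F/+ numbered 1 (Esm1) in place of 0 with a mean of at least 1 CPM and in DESeq2. The cause was not tested. Leaving out each library gave 18 to 24 markers higher and 2 lower in male S64F/+, 0 to 2 higher and 3 to 7 lower in female S64F/+ (7 without female WT 4), 5 to 17 with a male effect above and 0 below the female effect, 8 to 18 higher and 0 to 1 lower in male than in female S64F/+, and 0 in either direction between WT sexes. With the replicate block, 22 markers rose and 2 fell in males, 1 rose (Pecam1 in place of Icam2) and 4 fell in females, and 12 had a called male minus female effect. The sex contrasts could not be fitted with the block. Library-size scaling moved the all-gene median by about 0.2 (log2): it was 0.19 in males, 0.25 for the male minus female effect and 0.18 between the sexes in S64F/+. The all-gene calls were then 4245 higher and 668 lower in males (2818 and 2252 with TMM), 1031 and 30 for the male minus female effect (527 and 294) and 2752 and 377 between the sexes in S64F/+ (1470 and 1492). DESeq2 gave 1107 and 821 for the male minus female effect and 716 and 351 between the WT sexes (317 and 117 in edgeR). Depth limits Cldn5 and Tal1 most, with 974 and 1246 counts over all libraries.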
